A study of Bos taurus and Bos indicus x Bos taurus with 938 samples.

Results

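The regions described here are 8901 stretches of bovine chromatin that were open in a moderate share of the cells assayed. The deposited table numbers its regions from V1 to V302830 and holds 398 IVF and 421 SCNT cells. Members are those of V1 to V274100 with an open call in at least 12% and under 30% of all cells, and they make up 2.94% of all regions. The rule used only the number of cells with an open call, so how often a member was open over all cells is a description, not a finding.

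The study profiled single blastomeres, the cells of an early cleaving embryo, by ATAC-seq, in which a transposase cuts and tags DNA where chromatin is accessible. Embryos came from in vitro fertilization (IVF) or from somatic cell nuclear transfer (SCNT), where an oocyte stripped of its own nucleus receives one from a body cell. Oocytes for both were matured in culture from abattoir ovaries, each embryo was taken apart and each blastomere became its own library. The title of the series places the question around embryonic genome activation. SCNT embryos are labelled Bos taurus and IVF embryos Bos indicus x Bos taurus, and the 2 kinds also carry different title prefixes (15243 and 15244 for SCNT, 15286 and 15287 for IVF), so embryo type, breed label and title prefix cannot be told apart. The labels used here do not describe the donor cells of the SCNT embryos. The comparisons used embryos with at least 1000 open calls: 66 IVF and 40 SCNT embryos of 2 cells, 21 and 24 of 4 cells, and 14 and 21 of 8 cells. Embryos of other cell numbers are given as values.

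Accessible regions of the genome include gene promoters and distal enhancers, and most other DNA is wrapped more tightly around nucleosomes. In the first cleavages the embryo runs mainly on RNA and protein stored in the oocyte. In cattle the main wave of embryonic transcription begins around the 8-cell to 16-cell stage, and chromatin is opened at regulatory regions as it approaches. After nuclear transfer the donor nucleus has to be brought from a body cell's chromatin state to an embryonic state. The table gives the regions running numbers in place of positions, so no member could be tied to a gene, a promoter or a sequence.

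A cell had at most 129163 open calls, with a median of 10770 in IVF and 6465 in SCNT cells, and 87 cells had under 2000. The order of the regions fell into 29 blocks within which calls came and went together, and an absent block is one with under 10% of its expected calls in a blastomere with at least 2000 calls in the blocks. Cattle have 29 pairs of autosomes, but whether a block is a chromosome was not tested. In IVF embryos of 2, 4 and 8 cells, 56.8%, 46.8% and 24.7% of the blastomeres judged had an absent block (67, 29 and 22). These blastomeres came from 46 of 65, 16 of 20 and 4 of 14 embryos with a judged blastomere. The percentages count blastomeres, so they do not measure the spread between embryos. In SCNT embryos of 2, 4 and 8 cells absent blocks were found in 1, 4 and 0 blastomeres, from 1, 2 and 0 embryos. The 8-cell embryos with the lowest member coverage of their type were SCNT embryo 52 (0.281) and an IVF embryo at 0.446. The labels of the 8-cell embryos were checked, after the values had been seen, on 29 regions, 3 of them members, that were open more often in SCNT than in IVF embryos of 2 cells. Over these regions 13 of the 14 IVF 8-cell embryos had 0.0595 to 0.592 of the expected calls, whereas the IVF embryo whose titles give no embryo number had 1.59. The SCNT 8-cell embryos had 1.21 to 4.87, except embryo 52 with 0.556. The unnumbered IVF embryo therefore lay within the range of the SCNT embryos, and SCNT embryo 52 within that of the IVF embryos.

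**Figure D1:**
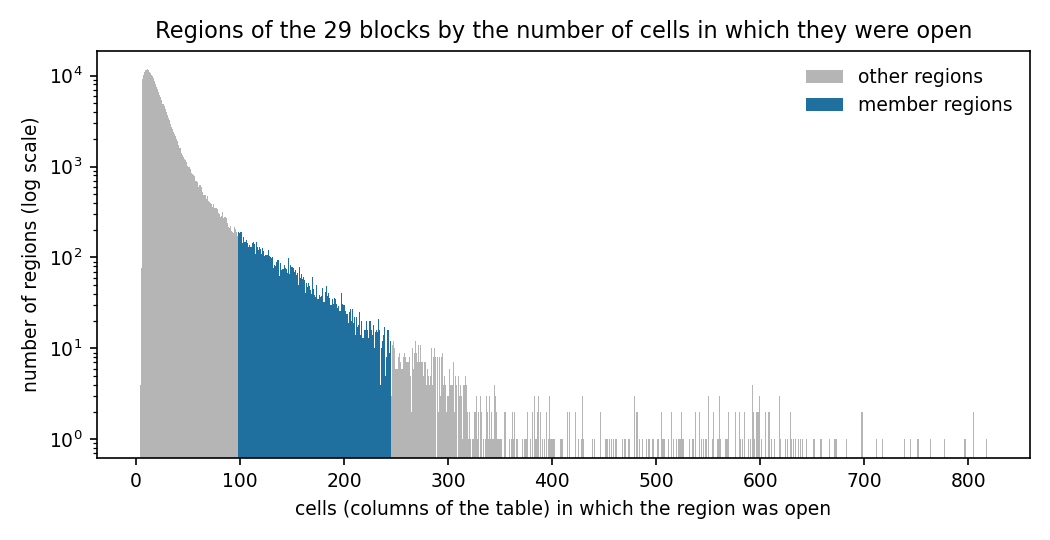
Number of regions (log scale) among V1 to V274100 by the number of cells in which they were open. The members (blue), open in 12 to under 30% of cells, lie on the falling slope between the many rarely open regions and the 698 regions open in 30% or more of cells.

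The median member was open in 16.1% of cells. The lower limit lay in a dense part of the distribution: 190 members, or 0.0693% of the regions of the blocks, were open in exactly 99 cells, and 0.0635% lay just outside at 98 cells. The upper limit was thin, with 12 members just inside it (29.9% of cells) and 3 regions just outside. Most members lay near the lower limit, with 38.6% open in under 15% of cells, 37.0% in 15 to under 20%, 17% in 20 to under 25% and 7.43% in 25 to under 30%. Together the members held 1261646 of the 9499949 open calls, or 13.3%. The 698 regions of the same blocks open in 30% or more of cells held 2.59%.

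The members were open in a median of 20.1% of IVF cells and 12.8% of SCNT cells. Taken by type, 8149 members also met the limits of 12 and 30% in IVF cells and 5157 in SCNT cells, and 4426 (49.7%) met them in both. The median member was open in 14.7%, 17.3% and 28.2% of the blastomeres of IVF embryos of 2, 4 and 8 cells, and in 7.04%, 9.09% and 11% of those of SCNT embryos. Depth differed between the groups too: the median blastomere had 10168, 8030 and 13374 calls in the IVF groups and 3484, 4330 and 7061 in the SCNT groups. A member had a call in at least 1 blastomere of 8.60% (V242980) to 64% (V92667) of all embryos compared, with a median of 32.3%. No member was found in every embryo of 2 or 4 cells of either type. Among 8-cell embryos, 1.73% of members had a call in all 14 IVF embryos and 0.0337% (3 members) in all 21 SCNT embryos. In SCNT embryos of 2 cells 1.95% of members had no call at all.

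A single blastomere had 17 to 8038 members open, with a median of 1363.5 in IVF and 773 in SCNT. The share of a blastomere's calls that fell in members differed with depth and was lower at both ends. It had a median of 10.3% in 87 blastomeres under 2000 calls and of 14.0% in blastomeres with 10000 to under 20000 calls. The 9 deepest blastomeres, all IVF, had a median of 7.78%. For this reason groups were compared by relative coverage, the open calls an embryo had in members divided by the calls expected from the depth of its blastomeres and the openness of each region.

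In the order of the table the members were uneven. In block 10, 6.52% of regions were members, followed by block 18 with 5.45% and block 11 with 4.96%, and the lowest share was 2.13% in block 4. Over all blocks the share was 3.25%. Members also lay beside each other: 1445 of them (16.2%) had another member as the next or previous number, against 5.92% of the other regions of the blocks. The mean number of cells over the 2 neighbours of a member had a median of 31.5. Single regions of the blocks were open in a median of 19 cells. A mean of 2 regions and a single region are unlike measures, so these medians are not directly comparable. The longest unbroken run held 6 members, V69257 to V69262 in block 7. Of the members, 1.45% stood next to a region open in 30% or more of cells. There are 698 such regions, and 16.8% of them had a member as the next or previous number, against 5.92% of all non-member regions.

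In IVF embryos the members took a growing share of the open calls from 2 to 8 cells. Relative coverage of the members in IVF 2-cell embryos ran from 0.612 through a median of 0.763 to 0.987. IVF 4-cell embryos ran from 0.605 through 0.842 to 1.60, and IVF 8-cell embryos from 0.446 through 1.25 to 1.65. All 66 IVF embryos of 2 cells lay below the expected value of 1, and 12 of the 14 embryos of 8 cells lay above it. The mean was 0.762 ± 0.0836 (SD, n = 66) at 2 cells, 0.947 ± 0.259 (n = 21) at 4 cells and 1.25 ± 0.336 (n = 14) at 8 cells. The rise of 0.487 from 2 to 8 cells passed a two-sided permutation test over embryos (adjusted p = 0.00018 over 9 comparisons, where the unadjusted p of 2e-05 is the smallest the resamples can give). The rises of 0.185 from 2 to 4 cells (permutation test, adjusted p = 0.00036) and of 0.301 from 4 to 8 cells (adjusted p = 0.014) also passed. The IVF groups differed in title prefix: 63 of the 66 embryos of 2 cells carry prefix 15286 and all 14 embryos of 8 cells carry 15287. Within prefix 15286 the difference between 4 and 2 cells was 0.165 (16 and 63 embryos, permutation p = 6e-05). Within prefix 15287 the difference between 8 and 2 cells was 0.389 (14 and 3 embryos, exact permutation p = 0.0853) and that between 8 and 4 cells 0.223 (14 and 5 embryos, exact permutation p = 0.24). Without blastomeres that lack a block, the rise from 2 to 8 cells was 0.376 (adjusted p = 0.00018), and the difference between 8 and 4 cells was 0.213 (adjusted p = 0.105). The sizes depended on the scaling: with depth taken from the commonly open regions the rises were 0.906 from 2 to 8 cells (adjusted p = 9e-05), 0.291 from 2 to 4 (adjusted p = 0.00396) and 0.616 from 4 to 8 (adjusted p = 0.0299). In addition, 1 library labelled 4-cell bears the embryo number of 3 libraries labelled 3-cell and was counted as an embryo of its own. Without it the differences were 0.196 between 4 and 2 cells and 0.29 between 8 and 4 (adjusted p = 9e-05 and 0.02).

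In SCNT embryos the members were also covered more at 4 and 8 cells than at 2. SCNT 2-cell embryos ran from 0.445 through 0.814 to 1.37, 4-cell embryos from 0.635 through 0.985 to 1.35 and 8-cell embryos from 0.281 through 0.960 to 1.50. The 3 ranges overlapped widely, and 10 of 24 embryos of 4 cells and 10 of 21 of 8 cells lay above 1. The means were 0.833 ± 0.221 (n = 40), 0.997 ± 0.168 (n = 24) and 1.00 ± 0.293 (n = 21). The rise from 2 to 4 cells was 0.163 (permutation test, adjusted p = 0.00858), that from 2 to 8 cells 0.167 (adjusted p = 0.0283), and 8-cell and 4-cell embryos differed by 0.00347 (adjusted p = 0.96). With depth taken from the commonly open regions these rises were 0.181 (adjusted p = 0.236) and 0.0415 (adjusted p = 0.781). The rise from 2 to 8 cells was 0.11 (adjusted p = 0.32) in embryos with every blastomere in the table. Within prefix 15243 the 4-cell embryos exceeded the 2-cell embryos by 0.215 (permutation p = 8e-05), and the difference between 8 and 2 cells was 0.12 (p = 0.11). In prefix 15244 the corresponding differences were 0.0113 (2 and 10 embryos, exact permutation p = 0.97) and 0.141 (9 and 10 embryos, exact permutation p = 0.253).

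The course of the members from 2 to 8 cells differed between the types. The IVF change exceeded the SCNT change by 0.32 from 2 to 8 cells (0.487 against 0.167, permutation of the embryos' deviations from their group means, adjusted p = 0.0078 over 3 contrasts). From 4 to 8 cells it exceeded it by 0.298 (0.301 against 0.00347, permutation test, adjusted p = 0.0202). From 2 to 4 cells the changes of 0.185 and 0.163 differed by 0.022 (adjusted p = 0.759). Without blastomeres that lack a block the differences from 2 to 8 and from 4 to 8 cells were 0.23 (adjusted p = 0.0727) and 0.216 (adjusted p = 0.115) and missed the threshold. Without SCNT embryo 52 and the lowest IVF 8-cell embryo they were 0.346 (adjusted p = 0.00015) and 0.324 (adjusted p = 0.00262), and without the unnumbered IVF embryo 0.325 (adjusted p = 0.00795) and 0.303 (adjusted p = 0.0235). With depth taken from the commonly open regions they were larger, 0.865 (adjusted p = 0.0027) and 0.755 (adjusted p = 0.017). These tests were chosen after the group values had been seen.

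Between the types, members were covered less in SCNT than in IVF embryos of 8 cells, with a difference of -0.249 (1.00 against 1.25, permutation test, adjusted p = 0.0335). That call depended on the processing. The difference was -0.203 (adjusted p = 0.0915) without blastomeres that lack a block, and -0.212 (adjusted p = 0.0579) when members were chosen by the same limits in the cells of all other groups. Without SCNT embryo 52 and the lowest IVF 8-cell embryo it was -0.275 (adjusted p = 0.00801), and without the unnumbered IVF embryo it was -0.254 (adjusted p = 0.0355). With depth taken from the commonly open regions it was -0.553 (adjusted p = 0.0914). At 2 cells SCNT embryos exceeded IVF embryos by 0.0713 (permutation test, adjusted p = 0.032), and the size of this difference moved widely with the processing. It was 0.312 (adjusted p = 9e-05) with depth from the commonly open regions and 0.112 (adjusted p = 0.00474) in embryos with every blastomere in the table. It was 0.0274 (adjusted p = 0.524) without blastomeres that lack a block. It was -0.000246 (adjusted p = 0.991) in the embryos with at least 5000 calls, which leave 25 of 40 SCNT and 64 of 66 IVF embryos. At 4 cells the difference was 0.0493 (adjusted p = 0.501).

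**Figure D2:**
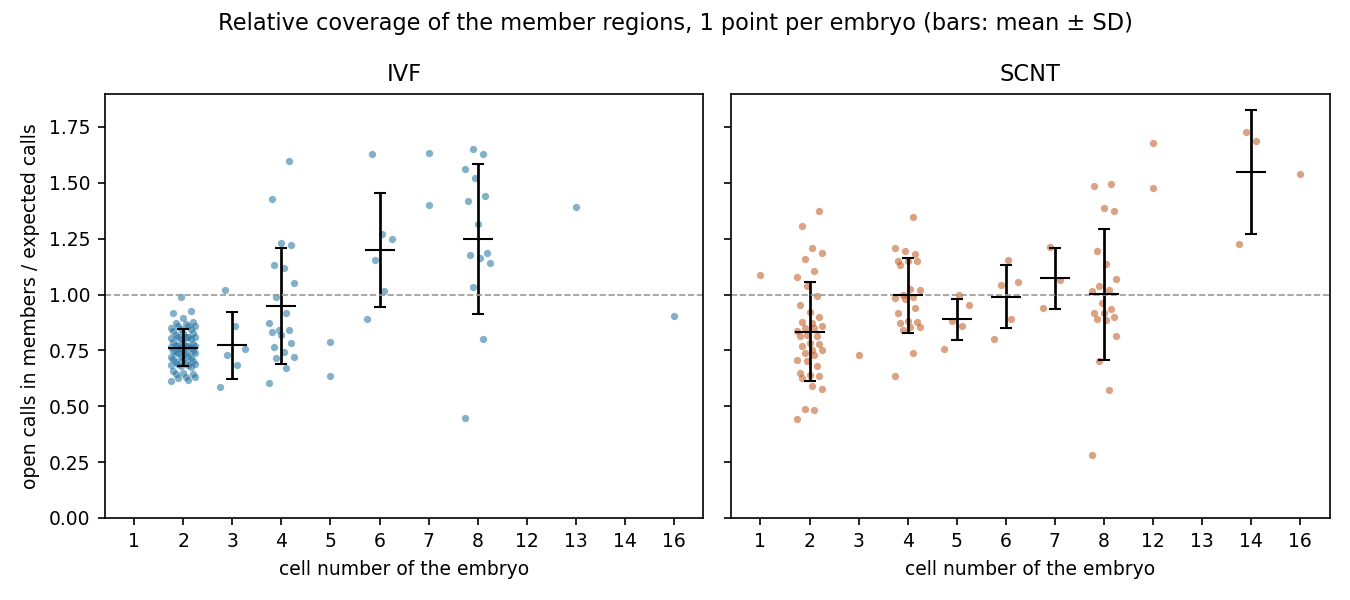
Open calls in the members divided by expected calls, 1 point per embryo with at least 1000 open calls, by the labelled cell number, for IVF (left) and SCNT (right). Black bars give mean ± SD for 3 or more embryos. All 66 IVF 2-cell embryos lie below 1 and 12 of 14 IVF 8-cell embryos above it, and the 6 SCNT embryos of 12 to 16 cells lie between 1.23 and 1.73.

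Embryos of the remaining cell numbers were few. The 6 IVF embryos of 6 cells had a mean relative coverage of 1.20 ± 0.255, and the 2 IVF embryos of 7 cells had 1.40 and 1.63. The 5 SCNT embryos of 6 cells had 0.989 ± 0.141, and the 3 of 7 cells 1.07 ± 0.137. The 6 SCNT embryos of 12, 14 or 16 cells ran from 1.23 through 1.61 to 1.73. All 6 carry prefix 15244, as do 9 SCNT embryos of 8 cells, which ran from 0.816 through 1.04 to 1.50. The means of 1.56 ± 0.188 (n = 6) and 1.13 ± 0.262 (n = 9) differed by 0.424 (exact permutation test, p = 0.00639), a comparison chosen after the values had been seen. The IVF embryos of 13 and 16 cells, 1 of each, had 1.39 and 0.902.

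The members were also set against regions of other openness. The log2 ratio of relative coverage in members to that in the 698 regions open in 30% or more of cells had a mean of -0.416 ± 0.369 in IVF 2-cell embryos (n = 66) and of 0.356 ± 0.566 in IVF 8-cell embryos (n = 14). The difference of 0.772 passed the permutation test (adjusted p = 0.00012 over 18 comparisons). In SCNT embryos this ratio was -0.428 ± 0.755 at 2 cells (n = 40) and -0.241 ± 0.511 at 8 cells (n = 21), a difference of 0.186 (permutation test, adjusted p = 0.406). At 8 cells the ratio was lower in SCNT than in IVF embryos by 0.597 on the log2 scale (adjusted p = 0.00878). Against the 1365 regions numbered above V274100 that met the same limits of openness, members gained 0.524 from 2 to 8 cells in IVF embryos (adjusted p = 0.00012). Against these regions the SCNT change from 2 to 8 cells was -0.0965 (adjusted p = 0.641). The types (SCNT over IVF) differed by -0.223 at 8 cells, which missed the threshold (adjusted p = 0.406), and by 0.398 at 2 cells (adjusted p = 0.00012). At 4 cells they differed by 0.544 (24 and 21 embryos, permutation test, adjusted p = 0.00018). Against the 698 more open regions the types differed by -0.0413 at 4 cells (permutation test, adjusted p = 0.835). These comparisons of classes were chosen after the coverage of the members had been seen.

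Single members were called most often between IVF embryos of 2 and 8 cells. Of 8898 members tested, 2704 were open more often and 65 less often at 8 cells, which is 31.1% of the members, against 8.37% of all 137121 regions tested, of which 6.31% were open more often and 2.06% less often (quasi-Poisson test over embryos, adjusted p under 0.05 over all regions). The median log2 ratio of observed to expected calls, 8-cell over 2-cell, was 0.887 in the members and -0.257 in all regions tested. Regions open in under 12% of cells had a median of -0.395, and those open in 30% or more a median of 0.00976. The background is mostly rarely open regions. Of the regions numbered above V274100 that met the same limits of openness, 26.3% were called, with a median log2 ratio of 0.238, and of those open in 30% or more of cells 43.8% were called. A high share of calls was not limited to the members. The share of members called grew with openness, from 22.6% of those open in under 15% of cells through 29.7% and 43.3% to 54.9% of those open in 25% or more. A region with more calls is also easier to call. By block the share ran from 13.9% in block 29 to 47.3% in block 10.

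The count fell steeply under 3 of the alternatives. Leaving out blastomeres with an absent block left 13 and 42 embryos, and 130 members were called more and 18 less often, with a median log2 ratio of 0.82. With every blastomere thinned to 2000 calls, 1900 members could be tested and 4 were called. Within prefix 15287, which has 3 IVF embryos of 2 cells, 0 members were called and 0.337% had an unadjusted p under 0.05. For these 3 settings the share of all regions called is not given here, so whether members exceeded it cannot be read from these counts. Members chosen without the IVF 2-cell and 8-cell columns gave 2279 called more and 51 less often of 7190 tested. This is 32.4% of those members, against 8.37% of all regions tested. Without the unnumbered IVF embryo the counts were 2530 and 53. The share of all regions called less often then went from 2.06% to 1.17%. The share called more often without that embryo is not given here, so whether members exceeded it cannot be read from the 2530. Without SCNT embryo 52 and the lowest IVF 8-cell embryo the counts were 2797 and 69, or 32.2% of members against 8.66% of all regions.

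The named members that rose in IVF were rarely open in SCNT embryos of 2, 4 or 8 cells. V188615 was open in 5 blastomeres (3.88%) of IVF 2-cell embryos and in 48 (46.6%) of IVF 8-cell embryos, and in 0, 0 and 6 blastomeres (4.14%) of SCNT embryos of 2, 4 and 8 cells. The share of an embryo's blastomeres with this region open ran from 0 through a median of 0 to 100% over the 66 IVF 2-cell embryos and from 0 through 56.3% to 100% over the 14 IVF 8-cell embryos. A call was present in 12 of 14 embryos of 8 cells and 4 of 66 of 2 cells, and the log2 ratio was 3.52 ± 0.781 (SE, quasi-Poisson test with limma-moderated dispersion, adjusted p = 2.03e-05). Its neighbour in the numbering, V188614, went from 5 to 45 blastomeres (log2 ratio 3.42 ± 0.53, adjusted p = 2.63e-06). Over all cells V188614 was open in 14.4% and V188615 in 14.5%, and 77 cells had both. Among all 421 SCNT cells, including those of other cell numbers, V188614 was open in 30 and V188615 in 32. V35029 in block 3 went from 5 to 46 blastomeres, with a call in 12 of 14 embryos of 8 cells (log2 ratio 3.45 ± 0.605, adjusted p = 5.97e-06). V41442 in block 4 and V187373 in block 23 went from 5 blastomeres each to 43 and 41 (log2 ratios 3.36 and 3.29), and both missed the threshold without blastomeres that lack a block (adjusted p = 0.13 and 0.0815).

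Fewer members fell, and several of these lay near the upper limit of openness. V218512 in block 25, open in 29.8% of all cells, had calls in 45.0% of the blastomeres of IVF 2-cell embryos (58), 21.3% of those of 4-cell embryos (16) and 6.80% of those of 8-cell embryos (7). The share per embryo had a median of 50% over IVF 2-cell embryos and of 0 over IVF 8-cell embryos, where the highest embryo had 33.3%. The log2 ratio of 8-cell over 2-cell embryos was -2.86 ± 0.636 (adjusted p = 0.000196). V126971 and V88871, both open in 29.4% of cells, went from 59 and 63 blastomeres to 8 and 10 (log2 ratios -2.69 and -2.49). In SCNT embryos V218512 was open in 29.6%, 29.9% and 31.7% of blastomeres at 2, 4 and 8 cells, and V126971 in 32.4%, 36.4% and 31%. V251325 and V198783, open in 12.8% and 13.3% of cells, each went from 33 to 5 blastomeres in IVF embryos. For V198783 the adjusted p was 0.0723 without blastomeres that lack a block.

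**Figure D3:**
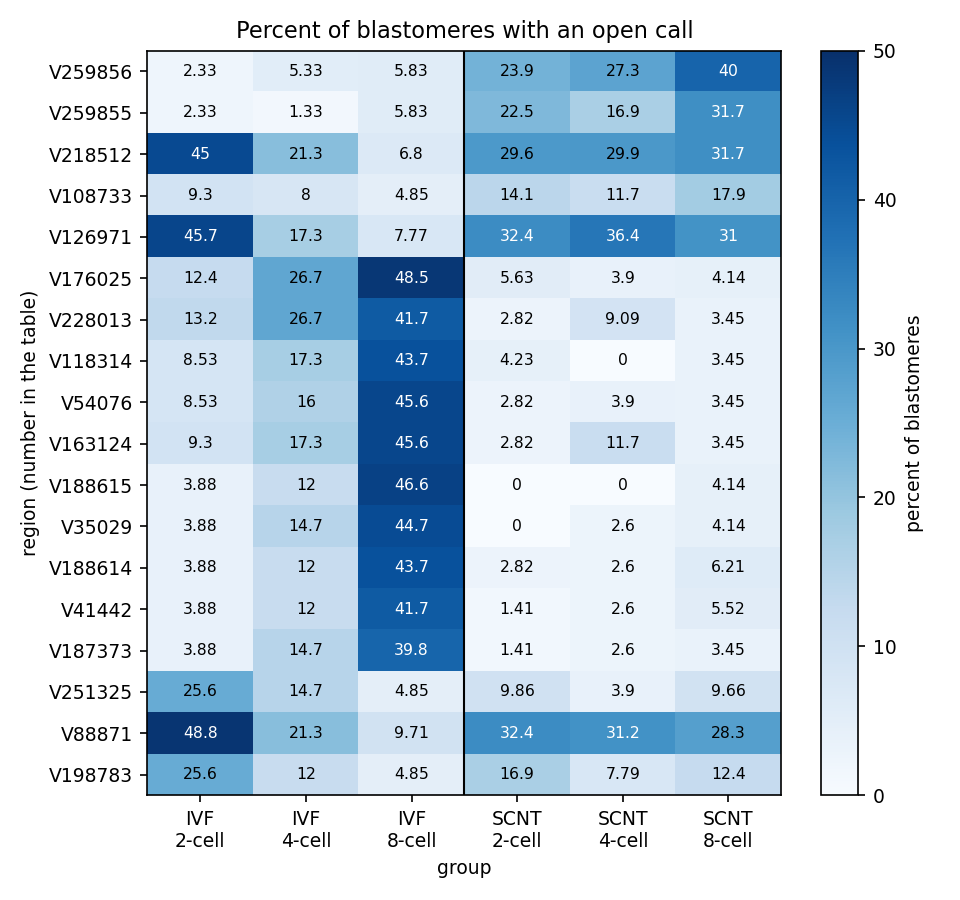
Percent of blastomeres with an open call for named members, in 6 groups. V259856 and V259855 are at 5.83% or below in every IVF group and at 16.9% or above in every SCNT group, and V188615 and V35029 reach 46.6% and 44.7% in IVF 8-cell embryos.

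The members called in IVF embryos were looked up in the SCNT comparison of 8 with 2 cells, which shares no embryo with it. Of the 2704 members that rose in IVF, 2535 could be tested there and 78% had a ratio above 1, with a median log2 ratio of 0.57. Over all members tested the share was 71.3% and the median 0.406, and over all regions 54.1% and 0.0849. Of the 65 members that fell in IVF, 36.9% had a ratio above 1 in SCNT. No single member was called in the SCNT comparison of 8 with 2 cells (background 0%), and 5.44% of members had an unadjusted p under 0.05, against 3.77% of all regions. The score test without its exact bound called 16 members there, 0.185% of those tested, against 0.28% of all regions.

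Summed over the 2704 members, relative coverage in SCNT embryos was 0.695 ± 0.237 at 2 cells (n = 40), 0.855 ± 0.191 at 4 (n = 24) and 0.911 ± 0.396 at 8 cells (n = 21). In SCNT embryos of 12 to 16 cells it was 1.91 ± 0.417 (n = 6). The IVF embryos that chose this list had 0.538 ± 0.0757 at 2 cells (n = 66) and 1.57 ± 0.624 at 8 cells (n = 14), and IVF embryos of 6 cells, which did not, had 1.37 ± 0.551 (n = 6). The 65 members that fell in IVF had 1.21 ± 0.431 in SCNT 8-cell embryos (n = 21) and 0.704 ± 0.351 in those of 12 to 16 cells (n = 6). The 6132 members not called stood at 0.858 ± 0.0983 and 1.11 ± 0.228 in IVF embryos of 2 and 8 cells, and at 1.40 ± 0.167 in SCNT embryos of 12 to 16 cells.

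**Figure D4:**
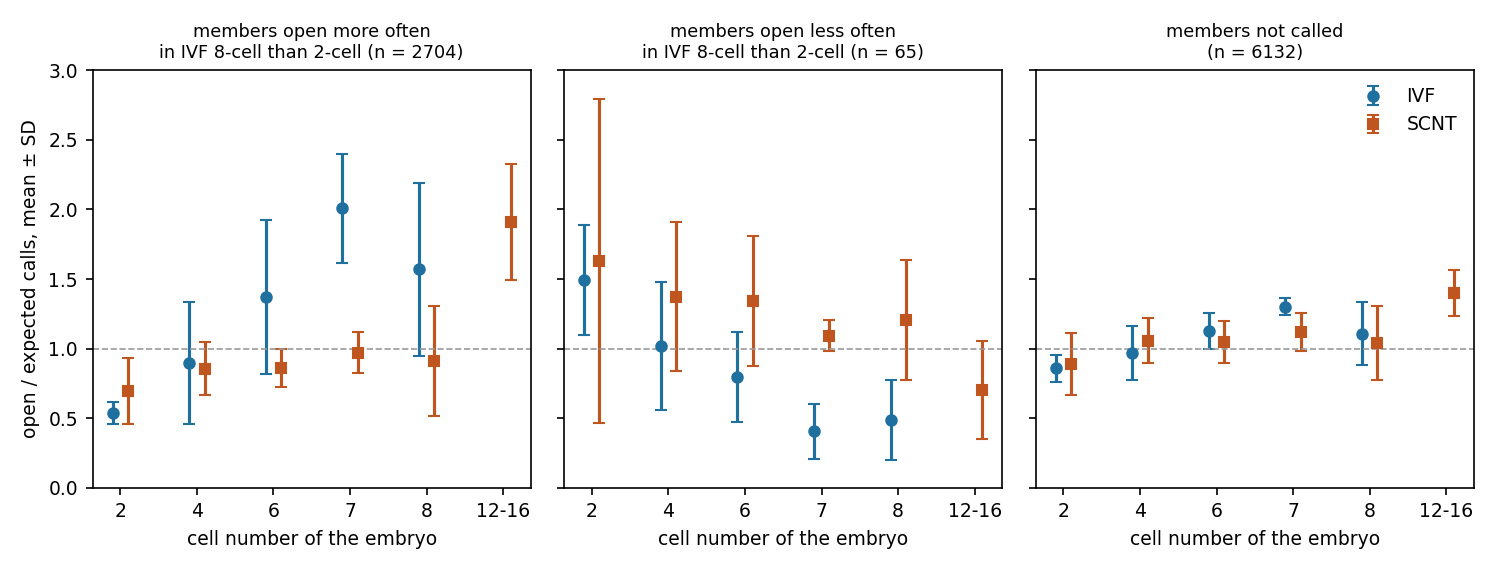
Relative coverage (open calls divided by expected calls, mean ± SD over embryos) of 3 lists of members by cell number, for IVF (circles) and SCNT (squares). The lists were chosen on the IVF 2-cell and 8-cell points, so those points describe the choice. In the left panel the SCNT embryos stand at 0.911 at 8 cells and at 1.91 at 12 to 16 cells.

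The remaining stage comparisons called few members or none. Between IVF embryos of 2 and 4 cells, 3 members of 8876 were open more often at 4 cells and 0 less often, against 0.0072% of all regions. V130280 in block 13 went from 6 blastomeres (4.65%) to 23 (30.7%) (log2 ratio 2.89 ± 0.543, adjusted p = 0.0345), and V100805 in block 10 from 11 to 28 (log2 ratio 2.30 ± 0.51, adjusted p = 0.048). V34249 in block 3, the other called member, went from 3 to 20 blastomeres and is named because the count is small, after its values were seen. All 3 were open in 26.2% or more of the blastomeres of IVF 4-cell and of IVF 8-cell embryos. In SCNT embryos of 2, 4 and 8 cells each was open in 11.7% of blastomeres or fewer. None of the 3 calls held without blastomeres that lack a block. No member was called between IVF embryos of 4 and 8 cells (14.5% of members with an unadjusted p under 0.05, against 6.72% of all regions), between SCNT embryos of 2 and 4 cells (3.28% against 2.40%) or between SCNT embryos of 4 and 8 cells (2.42% against 2.08%). The background in these 3 comparisons was 0%, and the score test without its exact bound called 0 members in each. That score test called 0%, 0% and 0.00625% of all regions, in the same order.

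Between the types at 8 cells, 311 members were called, 3.49% of 8901, against 0.856% of all 187128 regions tested. Of these, 65 were open more often in SCNT embryos (0.47% of all regions were) and the others less often (0.386%). Regions of like or higher openness were called more often than the members: 11.4% of the regions numbered above V274100 with the same limits of openness, and 26.4% of those open in 30% or more of cells. The median log2 ratio, SCNT over IVF, was -0.384 in the members and 0.0678 in all regions. It was -0.163 and 0.103 in those other classes. When depth was taken from commonly open regions the split was 12 more and 698 less often, which moved the share called more often from 20.9% to 1.69%. By block the share called ran from 0.578% in block 19 to 6.99% in block 10. Without the unnumbered IVF embryo 300 members were called, 48 of them more often in SCNT. Without SCNT embryo 52 and the lowest IVF 8-cell embryo 261 were called, 70 of them more often. That is 2.93% of members, against 0.789% of all regions. Members chosen without the IVF and SCNT 8-cell columns gave 2.93% called, against 0.856% of all regions, with 67 open more often in SCNT. With blastomeres thinned to 2000 calls, 0 of 7582 members were called. For the settings with common depth, without the unnumbered embryo and with thinning, the share of all regions called is not given here. Whether members exceeded it cannot be read from these counts.

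Of the members open more often in SCNT embryos, V259856 and its neighbour V259855 in block 28 differed most. V259856 was open in 40% of the blastomeres of SCNT 8-cell embryos (58) and 5.83% of those of IVF 8-cell embryos (6). The share of an SCNT embryo's blastomeres with V259856 open ran from 0 through a median of 42.9% to 100%. A call was found in 18 of 21 SCNT embryos, whereas all 6 IVF calls came from the unnumbered embryo, and the other 13 IVF embryos had none. The log2 ratio was 3.70 ± 0.755 (quasi-Poisson test with limma-moderated dispersion, adjusted p = 6.16e-08). Without the unnumbered embryo 0 of 95 IVF blastomeres had V259856 open. A count of 0 allows a share of up to 3.16% if blastomeres are taken as separate. This limit covers counting error only, and over 13 embryos, whose blastomeres are not independent, the share that 0 calls allow is larger. V259855 was open in 46 blastomeres of 20 SCNT embryos and in 6 blastomeres of that same IVF embryo (log2 ratio 3.41 ± 0.758, adjusted p = 5.9e-06). Over all cells V259855 was open in 15.9% and V259856 in 20.4%, and 94 cells had both.

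The difference at these neighbours was present at the earlier stages. At 2 cells V259856 was open in 23.9% of SCNT and 2.33% of IVF blastomeres, and at 4 cells in 27.3% and 5.33%. V259855 was open in 16 and 3 blastomeres at 2 cells and in 13 and 1 at 4 cells. V259856 was called at 2, 4 and 8 cells and V259855 at 2 and 8. They account for 2 of the 3 members called at 2 cells, where 8606 members were tested and 0.0496% of all regions were called (0.048% more and 0.00165% less often in SCNT), and V259856 is the only member called at 4 cells, where 8892 were tested and 0.00411% of all regions were called. The remaining member called at 2 cells was V253668, also in block 28, open in 18 SCNT and 13 IVF blastomeres (log2 ratio 2.45 ± 0.503, adjusted p = 0.0196). Without blastomeres that lack a block, 0 members were called at 2 cells and 0 at 4 cells.

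V218512 and V126971 were open in 46 and 45 blastomeres of SCNT 8-cell embryos against 7 and 8 in IVF (log2 ratios 3.02 and 2.78). These ratios use the same IVF 8-cell embryos as the falls from 2 to 8 cells given above. V108733 in block 11 was open in 26 against 5 (log2 ratio 2.88 ± 0.873, adjusted p = 0.00909), and missed the threshold without blastomeres that lack a block (adjusted p = 0.0599). In the other direction, V163124, V54076, V118314 and V228013 were each open in 5 SCNT blastomeres and in 47, 47, 45 and 43 IVF blastomeres, and V176025 in 6 and 50. Their log2 ratios were -2.62 to -2.77, and IVF calls came from 11 to 13 of 14 embryos. V163124 in block 18, for which the adjusted p was 0.00125, had a median share of 40.2% over IVF 8-cell embryos and a highest share of 20% over SCNT 8-cell embryos.

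The members called at 8 cells were looked up at the earlier stages, which use other embryos. Of the 65 open more often in SCNT, 84.6% had a ratio above 1 at 4 cells (median log2 ratio 0.844) and 70.3% at 2 cells (0.298). Of those open less often and tested there, 11.4% had a ratio above 1 at 4 cells (median -0.914) and 30.0% at 2 cells (-0.444). Over all members these shares were 48.3% and 52.5%. Embryo type and title prefix differ in the same way at every stage.

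The spread of calls between embryos was set against counting noise. After scaling each embryo to its own member coverage, the variance of calls between embryos over that expected from counting had a median between 0.684 and 0.869 in the 6 groups. Of the members with at least 5 calls in a group, it was above 2 in 0.124% in IVF 2-cell embryos, in 1.99% in IVF 4-cell and in 5.51% in IVF 8-cell embryos. In SCNT embryos the shares were 3.85%, 3.16% and 2.28% at 2, 4 and 8 cells. With few calls per region and embryo, ratios near or under 1 do not show that embryos were alike.

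Members near each other in the numbering tended to be open in the same blastomere. Neighbours were open together in 1.27 times the number of blastomeres expected from depth and the openness of each member, over 776 pairs. The expected number used 1 openness per member fitted over the 6 groups, also for single groups. Neighbours whose openness shifts alike in a group can thus raise the ratio, and how much of it this makes up was not tested. The ratio was 1.20 at a distance of 6 to 10 places, 1.14 at 31 to 100 and 1.08 beyond 1000 places in the same block, and 0.996 for members of different blocks. Without blastomeres that lack a block it was 1.17 for neighbours and 1.02 beyond 1000 places. IVF 2-cell blastomeres stood highest, with 1.56 for neighbours and still 1.31 beyond 1000 places, and 56.8% of the judged blastomeres in that group lack a block. SCNT 8-cell blastomeres, none of which lack a block, had 1.32 and 1.02. Whether neighbours in the numbering are close on the genome was not tested.

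**Figure D5:**
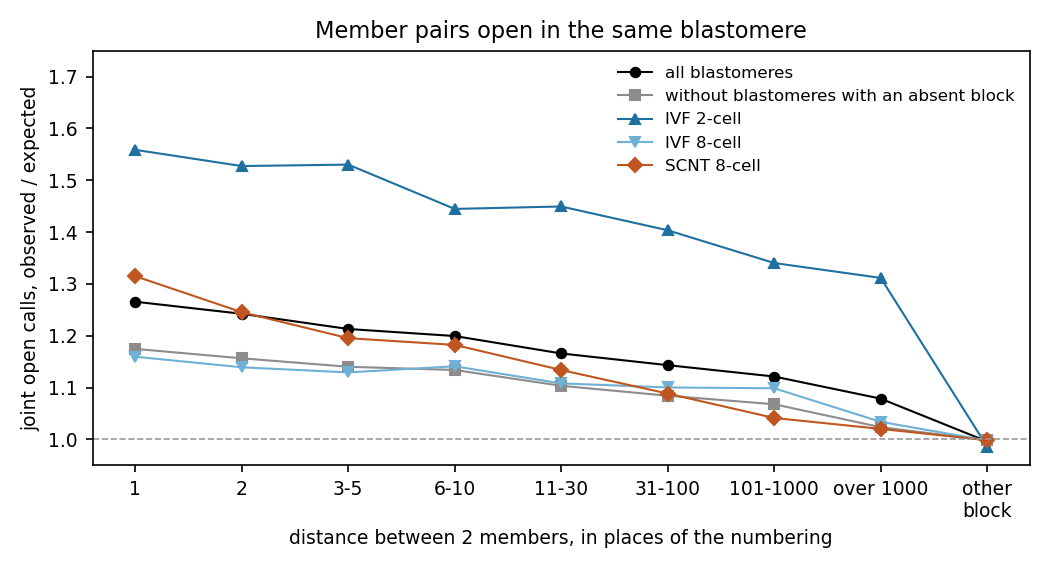
Observed over expected joint open calls of member pairs in the same blastomere, by their distance in the numbering, for all blastomeres, those without an absent block and 3 groups. The ratio for all blastomeres falls from 1.27 for neighbours to 0.996 for members of different blocks, and the IVF 2-cell line stays above 1.3 within a block.

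The open members of sister blastomeres were compared at equal depth. With every blastomere thinned to 300 open member calls, the Jaccard index (members open in both over members open in either) of sisters averaged 0.0156 to 0.0233 in the 6 groups, and no pair of any kind exceeded 0.0695. The level of the index is set by the thinning: at 1000 open member calls it averaged 0.0465 to 0.0797 in the 5 groups that could be compared, and the highest pair had 0.119. It can be read only against blastomeres of other embryos thinned alike. In 8-cell embryos sisters shared more than blastomeres of different embryos of the group. The index was 0.0222 against 0.0189 in IVF (264 sister pairs of 13 embryos, permutation test, adjusted p = 0.0003) and 0.0233 against 0.0203 in SCNT (321 pairs of 20 embryos, adjusted p = 0.0003). The unadjusted p of 1e-04 is the smallest that these resamples can give. Single blastomeres were permuted over embryos, so the p-values of sister pairs do not measure the spread between embryos. In IVF 4-cell embryos the excess was 0.00193 (permutation test, adjusted p = 0.0126), but it was -0.00212 within prefix 15287 and 0.00187 (adjusted p = 0.0973) without blastomeres that lack a block. In SCNT 4-cell embryos it was 0.00127 (permutation test, adjusted p = 0.0574), and 0.0027 (adjusted p = 0.0008) without such blastomeres. In IVF 2-cell embryos sisters shared less, 0.0156 against 0.0195 (53 pairs, 15 of them above the mean of unrelated pairs, permutation test for an excess, p = 1). In the 13 IVF pairs without an absent block the difference was 0.00157 (permutation p = 0.176).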

How the data were processed

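The authors deposited 1 table of 302830 regions by 819 single cells, in which every value is 0 or 1. A 1 was read as an open call and a 0 as none, so no read depth stands behind a value. The submitters' processing notes name FastQC 0.10.1, Bowtie2 2.2.6 and bedtools. For the genome build, the peak caller and the rule behind an open call, the answer is not given in the sources used here. Columns carry numbers, and these were matched to library titles by number: columns 1 to 259, 500 to 729, 1001 to 1212 and 1501 to 1737 follow the 4 title prefixes. No source states this link, and every group rests on it. The labels list 938 libraries, and the 119 of them that match no column were not analysed here. The groups of 2, 4 and 8 cells held 129, 75 and 103 IVF and 71, 77 and 145 SCNT blastomeres.

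An open call was modelled as 1 - exp(-blastomere factor x region factor), fitted over all regions on 600 blastomeres of 192 embryos, of which 186 reached 1000 calls. Except in the sister comparison the embryo was the replicate, and permutation and score test p-values measure the spread between embryos. The permutation of mean differences does not allow for groups of unlike spread. The SD of relative coverage was 0.0836 in IVF 2-cell embryos and 0.336 in IVF 8-cell embryos. Relative coverage was compared by permutation (100000 resamples, exact where a group had under 10 embryos). Single regions with a call in at least 10% of the embryos compared were tested by a quasi-Poisson score test with limma 3.58.1 dispersions and an exact binomial bound, with Benjamini-Hochberg adjustment over all regions tested at 0.05. Where the exact bound set the p-value, it covers counting error only. The region test was also run on simulated calls that varied between embryos by block only, without added spread at single regions or absent blocks. Its outcome is not given here, and no conclusion is drawn from it. Sister blastomeres were compared over 10000 permutations of single blastomeres over the embryos of a group. Named regions are the 5 called members with the largest ratio in each direction, with at least 5 calls in each group. Members, lists and comparisons were chosen with earlier results of these data known. Alternatives were other depth scalings, filters, tests and member limits, thinning to 2000 calls, each title prefix alone and leaving out blastomeres with an absent block. Chosen after the data were seen were the settings without single embryos or libraries or with members from other columns, the class ratios, the differences in change, the check of embryo labels and the late SCNT comparison. Python 3.11.15, scipy 1.17.1 and R 4.3.3 were used.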

Additional observations from a re-analysis of the deposited data

Results flagged for a closer look

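The change in relative coverage of the members between 2 and 8 cells differed between IVF and SCNT embryos by 0.32 (0.487 in IVF, 0.167 in SCNT, permutation test, adjusted p = 0.0078). The change between 4 and 8 cells differed by 0.298 (0.301 and 0.00347, adjusted p = 0.0202). Without blastomeres that lack a block these differences were 0.23 and 0.216 and missed the threshold, and with depth from commonly open regions they were 0.865 and 0.755. Embryo type coincides with title prefix and breed label, and 2-cell and 8-cell IVF embryos differ in prefix, so these cannot be told apart here. In the groups of 5 or 6 embryos (IVF of 3 and 6 cells, SCNT of 5 and 6 cells) no embryo stood far enough from the others to pass Dixon's criterion.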

How the results depend on the processing

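Relative coverage kept its direction and side of the threshold in most of the alternatives run. In the results that did not, the cause was not tested. Within prefix 15287 the IVF differences were 0.166 (4 minus 2 cells), 0.389 (8 minus 2) and 0.223 (8 minus 4). Without blastomeres that lack a block they were 0.213 for IVF 8 minus 4 cells, 0.0274 for SCNT minus IVF at 2 cells and -0.203 at 8 cells. With depth from commonly open regions they were 0.181 for SCNT 4 minus 2 cells, 0.0415 for 8 minus 2 and -0.553 for SCNT minus IVF at 8 cells. At 2 cells SCNT minus IVF was -0.000246 with at least 5000 calls per embryo. At 8 cells it was -0.359 in embryos with every blastomere, -0.257 by the median blastomere and -0.212 with members chosen in other columns. SCNT 8 minus 2 cells was 0.11 with every blastomere, 0.144 by the median, 0.12 within prefix 15243 and 0.141 within 15244, where 4 minus 2 was 0.0113. SCNT 8 minus 4 cells, which did not pass, was -0.14 with common depth, -0.00564 at 5000 calls, -0.0689 with every blastomere, -0.0181 by the median, -0.0948 within 15243 and -0.00236 without absent blocks. The IVF excess in change was 0.23 (8 minus 2) and 0.216 (8 minus 4) without absent blocks. For 4 minus 2 cells it was -0.0415 at 5000 calls and -0.0067 by the median.

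The percent of members called moved more, and again the cause was not tested. IVF 4 minus 2 cells gave 0.0789% with common depth and 1.45% with the score test alone, and 0 with no filter, thinned, within either prefix and without absent blocks. With the score test alone 0.337% of all regions were called. IVF 8 minus 2 (31.1%) gave 47.8% with common depth, 33.9% of the members open in 15 to 25% of cells, 1.66% without absent blocks, 0.211% thinned and 0 within 15287. SCNT minus IVF at 2 cells gave 0.0581% with common depth, 0.0349% with a filter at 25% of embryos, 0.581% with the score test, and 0 thinned or without absent blocks. At 4 cells it gave 0.0562%, 0.0537% and 0.27% under the same 3 settings, and 0 at 5000 calls, with no filter, thinned or without absent blocks. Over all regions the filter gave 0.0834% at 2 cells and 0.192% at 4, and the score test 1.17% and 0.47%. These shares lay above those of the members. At 8 cells (3.49%) SCNT minus IVF gave 7.98% with common depth, 8.57% with the 25% filter, 3.31% of the members open in 15 to 25%, 2.1% with no filter and 0 thinned. Of all regions 6.23% were called with the 25% filter and 0.336% with no filter, and the 3.31% stood against 0.856%. SCNT 8 minus 2 gave 0.185% with the score test, against 0.28% of all regions, and 0.0113% within 15244. The remaining settings are given without the share of all regions.

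The sister excess was 0.00157 in IVF 2-cell embryos, 0.00187 in IVF 4-cell and 0.0027 in SCNT 4-cell embryos without absent blocks, -0.00212 in IVF 4-cell embryos of 15287 and 0.00145 in SCNT 4-cell embryos of 15243. SCNT 2-cell sisters could not be compared at 1000 member calls. Among the named regions, 21 values under alternatives missed the threshold and 0 changed direction. No paired analysis was possible because no embryo number occurs in more than 1 of the 6 groups compared. Leaving out the library labelled 4-cell whose number recurs on 3-cell libraries changed no call count and no side of the threshold. Depth limits single regions: a blastomere had a median of 8221 calls over all regions.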
